A study of Mus musculus with 6 samples.

Results

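The collagen chain genes of the mouse were taken as every row of the deposited count tables whose symbol reads Col, a number, a and a number, such as Col1a1, with nothing after. The rule found 43 genes among 19865 rows. They comprised 11 fibrillar, 9 network-forming, 5 beaded-filament (type VI), 9 fibril-associated, 4 transmembrane and 2 multiplexin genes, and 3 genes outside these classes (Col7a1, Col26a1 and Col28a1). Transcripts were measured in transferred lung fibroblasts by 3'SAGE-seq, which counts short tags from polyA RNA, in 3 control and 3 trSrebf1 libraries. The donor cells were primary lung fibroblasts of Col1a2-GFP transgenic mice (strain label C57BL/6), in which the Col1a2 promoter drives a green reporter. Retrovirus carried either a control vector or trSrebf1, the active form of Srebf1c, a transcription factor of lipid synthesis, and hLNGFR marked the transduced cells. In the labels, 5000000 cells were given through the airway to C57BL/6 mice on day 5 after bleomycin (2 mg/kg), a drug that leads to lung fibrosis. Doxycycline, which switches on trSrebf1, is recorded on day 7 in the protocol that both groups share. Donor cells were sorted on day 10 as live, reporter-positive and hLNGFR-positive cells negative for CD45, CD31, EpCAM, CD146 and Ter119, with 10000 cells in each lysis. The labels give no age or sex and do not say whether replicates came from separate mice or cultures, so the p-values rest on a spread among libraries that may be technical only.

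Collagens are trimers whose chains wind into a triple helix through repeats of glycine and a pair of other residues (Gly-X-Y), and each chain has its own gene. Fibrillar chains (types I, II, III, V, XI, XXIV and XXVII) make the fibrils that fill scar tissue, with types V and XI acting in fibril assembly. Network chains (types IV, VIII and X) form sheets such as the basement membrane, type VI forms beaded filaments, fibril-associated chains decorate fibrils, transmembrane chains sit in the cell surface, and multiplexins lie at basement membranes. In the injured lung, fibroblasts are a main source of fibrillar collagen.

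The libraries held 3675146 to 4688196 counts, and 1 count was worth 0.215 to 0.262 CPM (counts scaled to a common library total with TMM factors). Srebf1 rose from 7.11 ± 1.72 to 28.2 ± 3.30 CPM (SD, n = 3 each), which is 1.98 on the log2 scale (SE 0.23, edgeR adjusted p = 2.88e-06). These tags do not tell the mouse's own gene from the vector's. Of 7 fibroblast markers 6 were tested, of which 4 fell (Dcn, Thy1, Lum and Pdgfra), 1 rose (Pdgfrb) and Pdpn did not pass the threshold. By the same threshold 17.2% of all tested genes were higher and 13% lower. Dcn averaged 7378 ± 550 CPM without and 3376 ± 189 CPM with trSrebf1, Pdgfrb 78.6 ± 6.28 and 143 ± 10.5 CPM, and Pdgfra 10.6 ± 2.67 and 4.46 ± 1.18 CPM (SD, 3 libraries each). Thy1 and Lum had log2 fold changes of -0.95 (SE 0.16) and -0.75 (SE 0.18). Pecam1, Epcam and Mcam, which encode surface proteins that the sort removed, summed to 0.254 to 1.55 CPM in the 6 libraries. Ptprc, the gene of CD45, had no row. Ctsd took 0.860% to 0.953% of the counts in control and 6.53% to 6.81% in trSrebf1 libraries.

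Collagen genes took a smaller share of all counts in trSrebf1 fibroblasts. Control libraries gave 4.31%, 3.77% and 3.82%, trSrebf1 libraries 2.99%, 3.13% and 3.26%, with means of 3.97% ± 0.299 and 3.13% ± 0.135 (SD, n = 3 each). The groups did not overlap, and the difference was -0.840 percentage points, or -0.652 when Ctsd was left out of the totals. The genes Col1a2, Col1a1, Col4a2 and Col3a1 together held 74.4% to 78.5% of the collagen tags of a library. Fibrillar genes took 2.63% ± 0.148 of all counts in control and 2.09% ± 0.108 in trSrebf1, network genes 1.01% ± 0.132 and 0.705% ± 0.0466, and beaded-filament genes 0.118% ± 0.00796 and 0.0915% ± 0.00209. The share of the multiplexins was 0.0567% ± 0.00180 and 0.0598% ± 0.00196. Fewer collagen-producing cells in a sorted library and less collagen RNA per cell cannot be told apart in bulk samples.

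**Figure D1:**
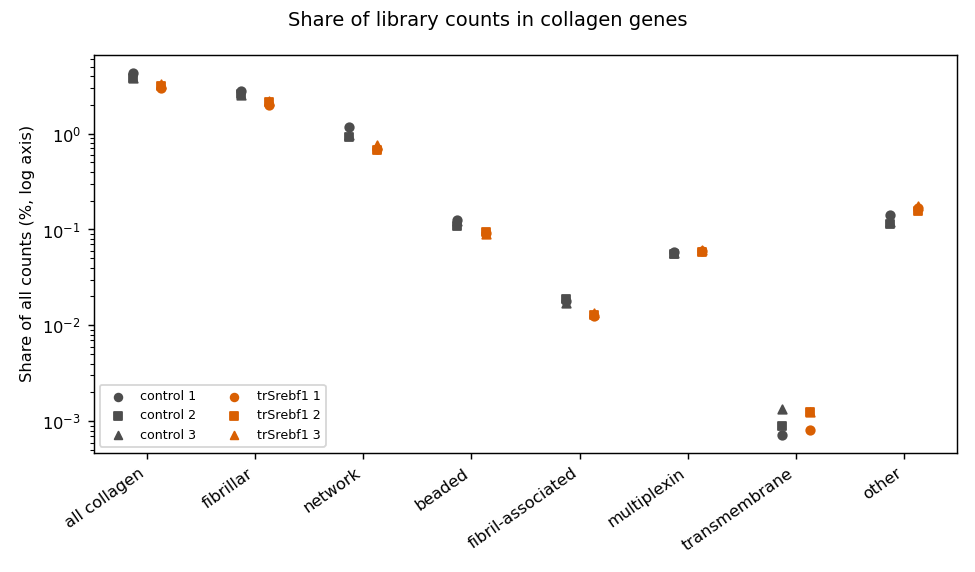
Share of all counts of a library (%, log axis) held by all collagen genes and by each class, with 1 point per library in both groups. All 3 trSrebf1 libraries lie below the controls for all collagen, fibrillar, network, beaded and fibril-associated genes, and above them for the group called other, which Col7a1 fills.

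Of the 43 genes, 27 passed the filter on low counts and were tested. In trSrebf1 fibroblasts 5 were higher, 13 were lower and 9 did not pass the threshold (edgeR's quasi-likelihood test, p adjusted after Benjamini and Hochberg over 10194 genes, threshold 0.05). Thus 66.7% of the tested collagen genes were called, beside 30.2% of all tested genes. In all tested genes 17.2% were called higher and 13% lower. The median log2 fold change was -0.37 for the tested collagen genes and -0.0125 for all tested genes. The 2 groups of libraries did not overlap for 18 collagen genes, 13 with control above and 5 with trSrebf1 above. Of all tested genes 43.4% did not overlap, 20.2% with control above and 23.1% with trSrebf1 above. Col9a2 and Col28a1 passed the filter through the libraries of 1 group alone, so a difference between their groups was built into their being tested.

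**Figure D2:**
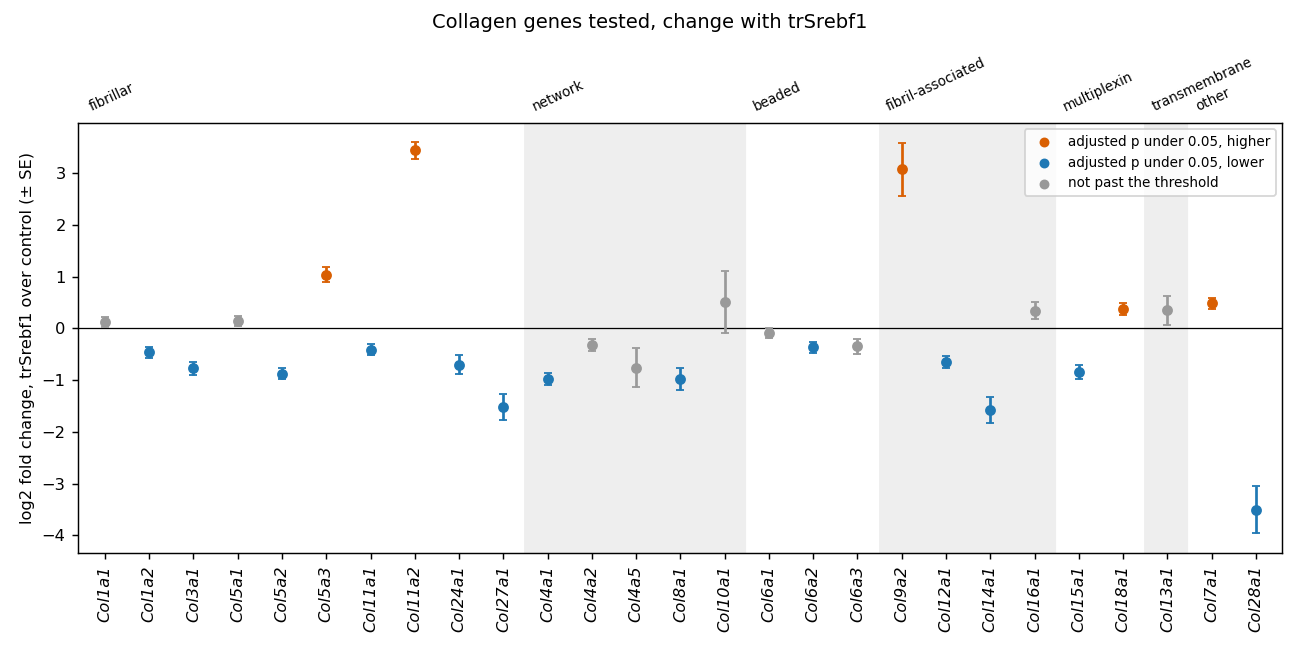
The log2 fold change of each tested collagen gene, trSrebf1 over control, with its standard error (bars), ordered by class (shaded bands). Col11a2, Col9a2 and Col5a3 lie above 1, Col28a1, Col14a1 and Col27a1 below -1, and Col1a1 and Col5a1 near 0.

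Among the 10 tested fibrillar genes 6 fell, 2 rose and 2, Col1a1 and Col5a1, did not pass the threshold (median log2 fold change -0.44). Of the chains of type I collagen, the bulk of scar fibrils, Col1a2 fell and Col1a1 did not pass the threshold. Col1a1 (chromosome 11, 94936224 to 94953042, plus strand) stood at 8097, 6696 and 7568 CPM in the controls and 7162, 8925 and 8284 CPM with trSrebf1. Its groups overlapped, and its log2 fold change was 0.12 (SE 0.10, adjusted p = 0.419). Col1a2 (chromosome 6, 4504814 to 4541544, plus strand), which encodes the other chain, stood at 10594, 8986 and 9320 CPM in the controls and 6369, 7572 and 6996 CPM with trSrebf1. Every trSrebf1 library was below every control library, and the gene fell by 0.47 on the log2 scale (SE 0.10, adjusted p = 0.00157). The Col1a2 promoter also drove the reporter on which cells were sorted; the part of that gate in the result was not tested.

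Col3a1 (chromosome 1, 45311538 to 45349706, plus strand), the chain of type III collagen, which is laid down early in wound repair, stood at 6739, 5734 and 4774 CPM in the controls and 3307, 2882 and 3900 CPM with trSrebf1. The groups did not overlap, and Col3a1 fell by 0.77 (SE 0.13, adjusted p = 0.000302). Gm47302 shares 141 exonic bases with Col3a1 on the same strand, outside the last 500 bases of the gene. Col5a2, which lies 24614 bases from Col3a1 with their 3' ends facing each other (chromosome 1, 45374321 to 45503282, minus strand), also fell. It stood at 443, 377 and 377 CPM in the controls and 214, 226 and 215 CPM with trSrebf1, and fell by 0.87 on the log2 scale (SE 0.11, adjusted p = 6.27e-06).

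Of the other chains of type V collagen, which regulates how fibrils start and how thick they grow, Col5a1 did not pass the threshold and Col5a3 rose. Col5a1 (chromosome 2, 27886425 to 28039514, plus strand) stood at 1774, 1599 and 1884 CPM in the controls and 1877, 2030 and 1894 CPM with trSrebf1. It had overlapping groups and did not pass the threshold (log2 fold change 0.14, SE 0.10, adjusted p = 0.316). A stretch of about 50 bases in the last 500 bases of its transcript matches transcripts of other genes, so its count is uncertain. Col5a3 (chromosome 9, 20770050 to 20815067, minus strand), the least abundant of the 3 in tags, stood at 78.9, 61.4 and 88.9 CPM in the controls and 142, 169 and 162 CPM with trSrebf1. The groups were apart, and Col5a3 rose by 1.04 (SE 0.14, adjusted p = 1.57e-05).

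Type XI chains, relatives of type V that are best known from cartilage fibrils, moved in opposite directions. Col11a1 (chromosome 3, 114030540 to 114220718, plus strand) stood at 800, 718 and 701 CPM in the controls and 530, 548 and 591 CPM with trSrebf1, and fell by 0.41 (SE 0.10, adjusted p = 0.00498). Col11a2 (chromosome 17, 34039437 to 34066685, plus strand) stood at 14.4, 14.7 and 21.2 CPM in the controls and 200, 174 and 177 CPM with trSrebf1. The lowest trSrebf1 library was far above the highest control. Col11a2 rose 10.9-fold, by 3.45 on the log2 scale (SE 0.16, adjusted p = 3.88e-11), the largest rise among the 27 tested collagen genes. Its exons overlap no other gene in the annotation, and the last 500 bases of its transcript match no other gene over 50 bases at 95% identity.

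The 250 bases before the RefSeq start are shown for Col11a2 and Col5a3, which rose, and Col3a1, which fell, with GC boxes (GGGCGG) and CCAAT boxes in capitals on either strand. They lie at chr17:34038888-34039137 (plus strand), chr9:20815068-20815317 (minus strand) and chr1:45311288-45311537 (plus strand), in GRCm38.p6. The stretches of Col11a2 and Col5a3 hold GC boxes, and that of Col3a1 holds neither motif. In lacking a GC box Col3a1 is not typical of the genes that fell. In the longer promoter windows, 6 of the 10 with a window hold a GC box and 3 a CCAAT box.
Col11a2: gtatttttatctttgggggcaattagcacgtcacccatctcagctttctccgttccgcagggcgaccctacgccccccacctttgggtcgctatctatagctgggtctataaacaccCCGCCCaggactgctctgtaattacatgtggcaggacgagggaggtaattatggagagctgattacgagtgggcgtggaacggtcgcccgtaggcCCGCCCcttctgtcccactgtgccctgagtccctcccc
Col5a3: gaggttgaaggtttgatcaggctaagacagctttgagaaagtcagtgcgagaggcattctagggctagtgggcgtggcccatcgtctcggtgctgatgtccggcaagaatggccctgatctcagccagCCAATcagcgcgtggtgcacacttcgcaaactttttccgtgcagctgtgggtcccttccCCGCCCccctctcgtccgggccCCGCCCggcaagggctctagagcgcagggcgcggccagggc
Col3a1: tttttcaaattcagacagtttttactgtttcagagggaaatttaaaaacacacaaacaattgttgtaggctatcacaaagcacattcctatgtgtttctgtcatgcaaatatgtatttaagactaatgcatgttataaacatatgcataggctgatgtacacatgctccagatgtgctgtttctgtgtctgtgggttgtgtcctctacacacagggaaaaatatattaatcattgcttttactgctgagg

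Type XXIV and XXVII genes, fibrillar chains with shorter helices, fell. Col24a1 (chromosome 3, 145292472 to 145552011, plus strand) stood at 39.6, 28.4 and 39.2 CPM in the controls and 20.2, 22.3 and 23.5 CPM with trSrebf1 (log2 fold change -0.70, SE 0.18, adjusted p = 0.00616). Col27a1 (chromosome 4, 63214004 to 63334991, plus strand), known from cartilage, stood at 24.1, 15.2 and 16.5 CPM in the controls and 6.02, 6.34 and 7.08 CPM with trSrebf1 (log2 fold change -1.52, SE 0.25, adjusted p = 0.000172). Col2a1, the main fibrillar chain of cartilage, was not tested, with 2, 1 and 2 counts in control and 12, 0 and 0 in trSrebf1 libraries, so all its trSrebf1 tags came from replicate 1.

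**Figure D3:**
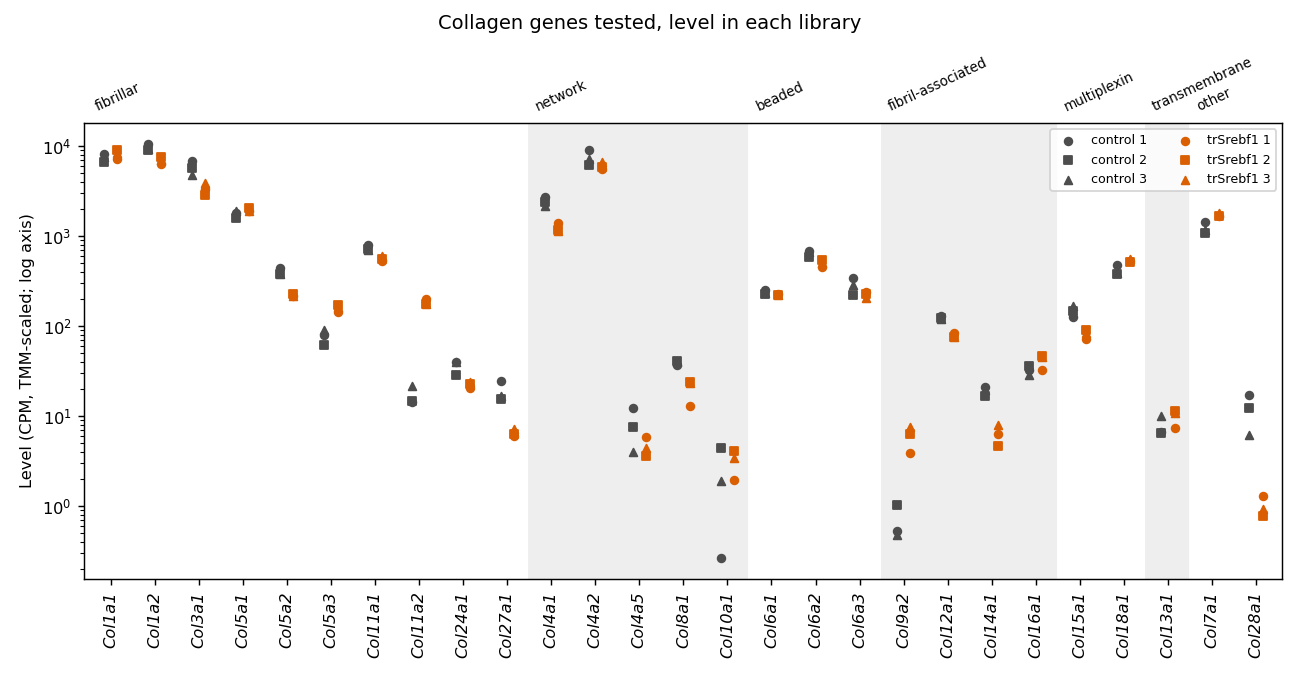
Level of each tested collagen gene (CPM, log axis) in each of the 6 libraries, with control in grey, trSrebf1 in orange and 1 marker shape per replicate number. The grey and orange points are apart for Col3a1, Col4a1, Col11a2 and Col28a1 and mixed for Col1a1, Col6a1 and Col13a1.

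Network genes had 2 that fell, Col4a1 and Col8a1, and 3 that did not pass the threshold among the 5 tested (median log2 fold change -0.76). Col4a1 (chromosome 8, 11198423 to 11312826, minus strand) encodes a main chain of the basement membrane. It stood at 2718, 2408 and 2150 CPM in the controls and 1384, 1159 and 1142 CPM with trSrebf1, and fell by 0.98 (SE 0.11, adjusted p = 2.82e-06). Its partner Col4a2 (chromosome 8, 11312805 to 11449287, plus strand) stood at 9084, 6185 and 7203 CPM in the controls and 5579, 5822 and 6608 CPM with trSrebf1. Those groups overlapped, and the log2 fold change was -0.32 (SE 0.12, adjusted p = 0.0648). Col4a2 passed the threshold without control replicate 2 (log2 fold change -0.44, adjusted p = 0.00991), with upper-quartile factors (0.0308), with total counts (0.0117) and with no filter (0.0102). Over all alternatives its adjusted p ran from 0.00991 to 0.259.

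The starts of Col4a1 and Col4a2 face away from each other, and their annotated exons overlap by 22 bases. These bases (GRCm38.p6 in the RefSeq promoter table, chr8:11312805-11312826, plus strand) are shown because both genes begin there, with a GC box (GGGCGG), a motif of the transcription factor Sp1, in capitals.
Col4a1 and Col4a2 shared start: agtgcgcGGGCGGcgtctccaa

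Col8a1 (chromosome 16, 57624258 to 57754737, minus strand), a short network chain of vessel walls, stood at 37.0, 41.0 and 39.6 CPM in the controls and 12.9, 23.9 and 23.3 CPM with trSrebf1, and fell by 0.98 (SE 0.21, adjusted p = 0.00137). Col4a5 and Col10a1 were low. Col4a5 had 12.1, 7.48 and 4.01 CPM in the controls and 5.81, 3.55 and 4.34 CPM with trSrebf1 (adjusted p = 0.149); without control replicate 3 its log2 fold change went from -0.76 to -1.10 and the adjusted p to 0.0288, in a range of 0.0288 to 0.618. Col10a1, a chain of growth-plate cartilage, had 0.262, 4.39 and 1.89 CPM in the controls and 1.94, 4.06 and 3.43 CPM with trSrebf1 (adjusted p = 0.579), and its 3' end overlaps Nt5dc1 on the opposite strand. Col4a6 had 7 to 10 counts in control and 2 to 8 in trSrebf1, Col8a2 had 2 to 16 and 8 to 14, and Col4a4 had 0 to 2 and 0 to 5. Col4a3 had 0 to 2 counts in control and 0 in the 3 trSrebf1 libraries, which allows up to 0.231 CPM in that group.

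Endothelium, pericytes and epithelium also make basement membrane chains, so their markers were counted. The 6 endothelial markers with a row summed to 1.18 to 1.81 CPM in control and 0.860 to 2.06 CPM in trSrebf1, and Pecam1, Cdh5 and Tek had 0 counts in trSrebf1. The 9 epithelial markers summed to 9.70 to 15.6 and 7.77 to 22.6 CPM, and Krt5 had 0 counts in control. Among them Cdh1, which was not tested, had 0, 1 and 0 counts in control and 14, 2 and 11 in trSrebf1, so its groups did not overlap. The 8 pericyte and smooth muscle markers summed to 111 to 119 CPM in control and 209 to 239 CPM in trSrebf1, with 2 of 6 tested members higher and 4 lower. Most of that rise came from Cspg4, at 16.4 ± 5.94 and 121 ± 19.2 CPM (SD, n = 3 each), while Rgs5 had 1 count in each group. The 3 macrophage markers with a row (Cd68, Csf1r and Lyz2) summed to 0.472 to 2.10 CPM in control and 0.457 to 2.03 CPM in trSrebf1. Adgre1, Marco and the CD45 gene Ptprc had no row. Mesothelial markers summed to 6.45 to 11.8 CPM in control and 4.06 to 9.03 CPM in trSrebf1. The part of such cells in the network genes was not tested.

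Of the type VI genes, which build the beaded filaments around cells, 1 of 3 tested genes was called (median log2 fold change -0.35). Col6a2 (chromosome 10, 76595762 to 76623630, minus strand) stood at 675, 590 and 661 CPM in the controls and 454, 540 and 501 CPM with trSrebf1, and fell by 0.37 (SE 0.11, adjusted p = 0.0135). Leaving out control replicate 3 or trSrebf1 replicate 1 ended the call of Col6a2 (adjusted p = 0.0556 and 0.0887), and over the alternatives its adjusted p ran from 0.00158 to 0.0887. Col6a1, 85161 bases from Col6a2 on the same strand, stood at 251, 224 and 234 CPM and 226, 222 and 219 CPM, and did not pass the threshold (log2 fold change -0.09, SE 0.10, adjusted p = 0.569). Col6a3 (chromosome 1, 90765923 to 90843971, minus strand), the long chain of the filament, stood at 343, 222 and 285 CPM and 236, 227 and 204 CPM, with overlapping groups (log2 fold change -0.35, SE 0.14, adjusted p = 0.0667). Without control replicate 2, the lowest control, it was -0.50 (adjusted p = 0.00642), and it also passed with upper-quartile factors (0.0293), total counts (0.0181) and no filter (0.0312), in a range of 0.00642 to 0.293. Col6a5 had 2, 1 and 1 counts in control and 0 in trSrebf1, and Col6a4 had 1 count in all.

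Among fibril-associated genes 4 of 9 were tested, of which 2 fell and 1 rose. Col12a1 (chromosome 9, 79598991 to 79718831, minus strand), which bridges fibrils in tissue under tension, stood at 129, 123 and 119 CPM in the controls and 82.8, 76.1 and 76.1 CPM with trSrebf1, and fell by 0.66 (SE 0.12, adjusted p = 0.000312). Col14a1 (chromosome 15, 55307750 to 55520803, plus strand), its close relative and a marker of a lung fibroblast subset, stood at 21, 16.5 and 19.3 CPM and 6.24, 4.57 and 7.99 CPM, and fell by 1.58 (SE 0.25, adjusted p = 0.000106). Both genes showed groups that did not overlap. Col9a2 (chromosome 4, 121039385 to 121055322, plus strand), a chain that coats type II fibrils in cartilage, had 2, 4 and 2 counts in control and 18, 25 and 33 in trSrebf1. In CPM this was 0.524, 1.03 and 0.472 against 3.87, 6.34 and 7.54, a rise of 3.08 on the log2 scale (SE 0.51, adjusted p = 0.000148). As Col9a2 passed the filter through the trSrebf1 libraries alone, a difference between the groups was built into its being tested. The other type IX chains, Col9a1 and Col9a3, had 1 count each in all libraries.

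Col16a1 stood at 32.5, 35.9 and 28.5 CPM in the controls and 32.7, 45.9 and 44.8 CPM with trSrebf1 and did not pass the threshold (log2 fold change 0.35, SE 0.17, adjusted p = 0.148). Col20a1 had 0 to 4 counts a library in control and 1 to 4 in trSrebf1. Col19a1 and Col22a1 had 1 count each in all libraries.

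Both multiplexins passed the threshold, in opposite directions. Col15a1 (chromosome 4, 47208161 to 47313167, plus strand) stood at 126, 147 and 167 CPM in the controls and 71.0, 91.1 and 84.1 CPM with trSrebf1, and fell by 0.84 (SE 0.14, adjusted p = 0.000117). Col18a1 (chromosome 10, 77052178 to 77166548, minus strand), whose C-terminal end is the source of endostatin, stood at 471, 374 and 386 CPM in the controls and 532, 518 and 551 CPM with trSrebf1, and rose by 0.38 (SE 0.11, adjusted p = 0.0138). Leaving out control replicate 2, control replicate 3 or trSrebf1 replicate 3 ended the call of Col18a1 (adjusted p = 0.0640, 0.105 and 0.0505), as did upper-quartile factors (0.0716); over the alternatives its adjusted p ran from 0.00103 to 0.105.

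Of the 4 transmembrane genes Col13a1 alone was tested. It stood at 6.56, 6.45 and 9.91 CPM in the controls and 7.31, 11.4 and 10.7 CPM with trSrebf1, with overlapping groups (log2 fold change 0.35, SE 0.29, adjusted p = 0.402). Col13a1 marks a lung fibroblast subset distinct from that marked by Col14a1. Col23a1 had 2 to 12 counts a library in control and 4 to 6 in trSrebf1. Col17a1, the chain of epithelial hemidesmosomes, had 1 to 2 and 0 to 3 counts, and Col25a1 had 1 count in all libraries.

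Outside these classes, the genes tested were Col7a1 and Col28a1. Col7a1 (chromosome 9, 108953586 to 108984875, plus strand), the chain of the fibrils that anchor basement membranes, stood at 1411, 1079 and 1151 CPM in the controls and 1668, 1643 and 1786 CPM with trSrebf1. The groups did not overlap, and Col7a1 rose by 0.49 (SE 0.11, adjusted p = 0.00245). Its share of the collagen tags went from 3.11% ± 0.0959 to 5.28% ± 0.277 (SD, n = 3 each). Col28a1 (chromosome 6, 7997808 to 8192617, minus strand), a chain known from peripheral nerve, had 65, 47 and 26 counts in control and 6, 3 and 4 in trSrebf1. It fell by 3.51 on the log2 scale (SE 0.45, adjusted p = 1.09e-05), the largest fall among the 27 tested collagen genes, with control libraries that spread from 6.13 to 17 CPM. As Col28a1 passed the filter through the control libraries alone, a difference between the groups was built into its being tested. Col26a1 had 0 counts in the 3 control libraries, which allows up to 0.251 CPM, and 1, 4 and 0 in trSrebf1.

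For Col28a1, the gene with the largest fall, the same stretch (chr6:8192618-8192867, minus strand) holds neither a GC box nor a CCAAT box. Like Col3a1, it differs from most of the genes that fell in lacking a GC box, but not in lacking a CCAAT box. In the longer promoter windows, 6 of the 10 with a window hold a GC box and 3 a CCAAT box.
Col28a1: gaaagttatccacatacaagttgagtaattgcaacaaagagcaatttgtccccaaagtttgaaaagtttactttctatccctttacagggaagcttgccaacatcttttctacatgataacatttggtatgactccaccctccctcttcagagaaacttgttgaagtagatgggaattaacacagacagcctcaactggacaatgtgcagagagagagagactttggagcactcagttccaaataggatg

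Chains that share a trimer or a fibril were then compared as ratios of tag counts within a library, which need no scaling. Tag counts come from the 3' end and are not divided by transcript length, and how many tags a transcript yields can differ between genes, so a ratio was read only for its change between groups. Of 11 pairs of genes, several of which share a gene, 9 had ratios that did not overlap between the groups. For each of those 9 the exact permutation test (two-sided) gave p = 0.1, which is its lower limit for 3 against 3 libraries. After adjustment for 11 pairs it was 0.122, so no pair could pass 0.05. Of single genes tested 43.4% did not overlap, and the share for pairs of other genes was not measured.

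The ratio of Col1a1 to Col1a2 was 0.764, 0.745 and 0.812 in control and 1.12, 1.18 and 1.18 in trSrebf1, a rise of 0.59 on the log2 scale. That of Col3a1 to Col1a1 was 0.832, 0.856 and 0.631 in control and 0.462, 0.323 and 0.471 in trSrebf1, a log2 difference of -0.89. Relative to Col1a1, the counts of Col1a2 and Col3a1 were thus lower in every trSrebf1 library than in every control. The ratio of Col5a1 to Col5a2 was 4.01, 4.24 and 5.00 in control and 8.78, 8.99 and 8.81 in trSrebf1, and that of Col5a3 to Col5a2 was 0.179, 0.163 and 0.236 in control and 0.664, 0.750 and 0.755 in trSrebf1. The latter difference, 1.92 on the log2 scale, was the largest of the 11. Ratios with Col5a1, here and below, carry the uncertainty of its count that was given with the gene. The ratio of Col4a1 to Col4a2, genes that share a start, was 0.299, 0.389 and 0.298 in control and 0.248, 0.199 and 0.173 in trSrebf1, a log2 difference of -0.68.

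Ratios of Col11a1 to Col5a1, Col12a1 to Col1a1 and Col14a1 to Col12a1 differed by -0.55, -0.78 and -0.95 on the log2 scale, and that of Col6a1 to Col6a2 by 0.28. The ratio of Col5a1 to Col1a1 lay at 0.219 to 0.249 in control and 0.227 to 0.262 in trSrebf1 (exact permutation p = 0.8, adjusted p = 0.88). That of Col6a3 to Col6a2 lay at 0.376 to 0.508 and 0.408 to 0.521 (exact permutation p = 0.9, adjusted p = 0.9). These 2 pairs overlapped between the groups.

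**Figure D4:**
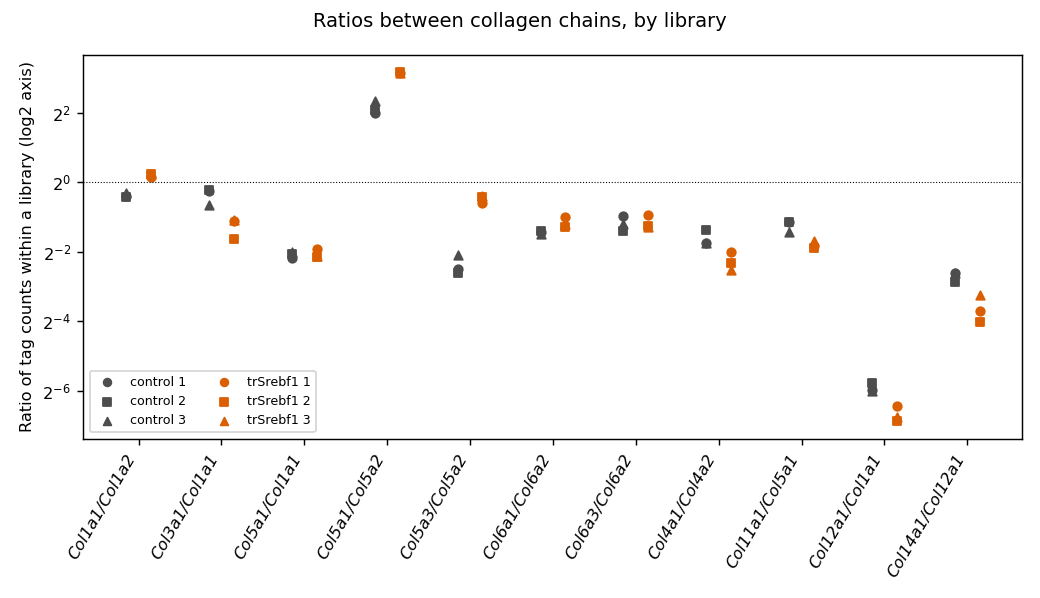
Ratio of tag counts between collagen genes within each library (log2 axis; the dotted line marks equal counts), for 11 pairs of chains, with 1 point per library. Control and trSrebf1 points are apart for 9 pairs and overlap for Col5a1 to Col1a1 and Col6a3 to Col6a2.

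Sequences of the genes were set beside these changes as descriptions. In the GENCODE M21 models, fibrillar chains of types I, II, III, V and XI have a longest unbroken run of 337 to 344 Gly-X-Y triplets, and Col24a1 and Col27a1 have runs of 216 to 217. Network chains have 9 to 27 runs of 5 or more triplets, with a longest run of 39 to 66, and fibril-associated chains a longest run of 32 to 113. Col5a3 and Col11a2, which rose, have runs of 337 and 338 triplets, and Col5a2 and Col3a1, which fell, have runs of 339 and 344.

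Promoter windows (250 bases before to 50 after the start, RefSeq, GRCm38.p6) were given for 34 of the 43 genes, in 37 windows. A GC box (GGGCGG, both strands) was found for 5 of 5 genes that rose, 6 of the 10 with a window that fell, 4 of 8 that did not pass the threshold and 6 of 11 that were not tested, counting a gene when any of its windows holds it. Per window it was found in 59.5% of the collagen windows and 35.7% of 32851 windows of all genes. A CCAAT box (CCAAT, both strands) was found for 3 of 5 genes that rose and 3 of 10 that fell, and in 35.1% of collagen windows and 37.4% of all windows. The SMAD box (CAGAC, both strands) was found for 3 of 5 genes that rose and 8 of 10 that fell, and in 51.4% of collagen windows and 49.6% of all windows. The palindromic E-box CACGTG was found in 0 of 37 collagen windows and 7.15% of all windows, and the wider E-box CANNTG, which also counts CACGTG, in 51.4% and 72.3%.

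A motif like the sterol regulatory element that SREBP proteins bind (TCACNCCAC, both strands) was found in 1.24% of all windows and in 2 of the 37 collagen windows. Those were the windows of Col11a2 and Col17a1, the latter with 4 counts in control and 5 in trSrebf1. In Col11a2 it lies on the reverse strand, 42 to 50 bases into the RefSeq transcript counted from its start as base 1, and before the start of the GENCODE model. A match is a description of letters and not a measured binding site. The 30 bases that hold it (chr17:34039158-34039187, plus strand) are shown with the motif in capitals, since Col11a2 is the gene with the largest rise.
Col11a2 motif: gggcccccaagggcagctgccGTGGTGTGA

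Genes that fold, process, bind and degrade collagen were counted from lists, each read beside the 17.2% of all tested genes called higher and 13% called lower. Of 15 tested genes of collagen folding 3 rose and 2 fell (median log2 fold change -0.20). The prolyl hydroxylase subunit P4ha1 rose by 0.89 (SE 0.10, adjusted p = 3.65e-06) and the collagen chaperone Serpinh1 by 0.46 (SE 0.11), while P4ha3 fell by 0.75 (SE 0.17) and the isomerase Ppib by 0.52 (SE 0.12). Of 10 tested genes of procollagen processing and cross-linking 1 rose and 5 fell (median -0.76). The N-propeptidase Adamts14 rose by 3.57 (SE 0.20), from 7.77 ± 2.88 to 93.4 ± 4.83 CPM, and its relative Adamts2 fell by 1.08 (SE 0.17), from 68.5 ± 9.70 to 32.4 ± 5.73 CPM (SD, n = 3 each). Pcolce, which speeds C-propeptide removal, and the cross-linking enzyme gene Loxl1 fell by 0.78 (SE 0.12) and 0.71 (SE 0.12). Loxl3, among the 5 that fell, and Loxl4, which did not pass the threshold, were tested through the control libraries alone.

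Of 8 tested genes of collagen receptors and uptake 3 fell and 0 rose. The integrin gene Itga1 fell by 1.80 (SE 0.28). The calls of Itga11 (log2 fold change -0.97, SE 0.30, adjusted p = 0.0199) and of the uptake receptor gene Mrc2 (-0.52, SE 0.15, adjusted p = 0.0125) were lost when some libraries were left out. For Itga11 these were control replicate 2 (adjusted p = 0.130) and trSrebf1 replicate 2 (0.0598), in a range of 0.00596 to 0.130, and for Mrc2 control replicate 3 (0.0788) and trSrebf1 replicate 1 (0.0503), in a range of 0.00523 to 0.0788. Of 9 tested genes of the degradation list, which also holds the protease inhibitor genes Timp1, Timp2 and Timp3, 2 rose and 3 fell. Mmp9 rose by 4.80 (SE 0.25), from 2.06 ± 0.870 to 59.1 ± 5.72 CPM (SD, n = 3 each). It was tested through the trSrebf1 libraries, all 3 of which reached the filter's level, beside only 1 control library. The protease genes Mmp2 and Mmp14 fell by 0.78 (SE 0.11) and 0.47 (SE 0.11). The inhibitor gene Timp3 fell by 0.85 (SE 0.13). Of 14 tested fibril-binding genes 1 rose and 10 fell (median -1.18), among them Prelp by 1.89 (SE 0.16), Dcn by 1.13 (SE 0.10), Thbs1 by 1.23 (SE 0.14) and Fmod by 1.28 (SE 0.15). The riser, Comp, passed the filter through the trSrebf1 libraries alone, and Tnxb, among the 10 that fell, through the control libraries alone, so both had to differ to be tested. Of 22 tested regulators of collagen transcription 3 rose and 9 fell. Among the risers was Srebf1 itself, whose tags could be the vector's or the mouse's own. The growth factor gene Tgfb1 also rose (log2 fold change 0.87, SE 0.15, adjusted p = 0.000238). So did Smad4, which carries the Tgfb1 signal (0.55, SE 0.12, adjusted p = 0.00201). Of the same pathway Tgfb3, Tgfbr2 and Smad7 fell, with log2 fold changes of -0.99, -1.36 and -0.87. Tgfbr1 also fell (log2 fold change -0.76, SE 0.27, edgeR adjusted p = 0.0455), and Tgfb2, Smad2 and Smad3 did not pass the threshold. Tgfb1, Tgfb2, Tgfbr1, Smad2, Smad3, Smad4, Tnxb, Loxl3 and Loxl4 were chosen after their values were seen.

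Several collagen chains are best known from cartilage. Of these Col11a2 and Col9a2 rose, Col11a1 and Col27a1 fell, Col10a1 did not pass the threshold and Col2a1, Col9a1 and Col9a3 were not tested. The rise of Col9a2 is limited by its filter, which it passed through the trSrebf1 libraries alone. Markers of chondrocytes were set beside these collagen genes. Sox9, a transcription factor of cartilage, rose, with 42.8 ± 7.14 CPM in the controls against 101 ± 11.2 CPM (SD, n = 3 each; log2 fold change 1.24, SE 0.15, adjusted p = 5.62e-06). Comp, a cartilage matrix protein and the fibril-binding gene that rose among those tested, had 1.33 ± 0.472 and 8.98 ± 2.02 CPM; as it passed the filter through the trSrebf1 libraries alone, a difference was built into its being tested. Sox9, Acan, Comp, Cspg4, Cdh1 and the Pdgfr genes were chosen after their values were seen. Acan, the main cartilage proteoglycan, stood at 5.12 ± 2.52 and 4.63 ± 1.42 CPM (adjusted p = 0.828), and Matn3 had 1 and 2 counts in the groups. The 3 chondrocyte markers with a row summed to 40.3 to 54.3 CPM in control and 97.9 to 119 CPM in trSrebf1, most of it from Sox9; their part in the collagen values was not tested.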

How the data were processed

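Per the labels, each of the 6 libraries came from polyA RNA of 10000 sorted cells (3'SAGE-seq, Ion Proton). The deposited tables hold raw counts per gene symbol, 1 table per library. The submitters' processing notes name Bowtie2 2.2.5 and mm10 without a role. Counter, annotation and strandedness: not given in the sources used here. PCR copies of tags cannot be told apart, so limits from counts of 0 (3 counts over a group) cover counting error only.

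Counts were tested across all genes with edgeR 4.0.16 (R 4.3.3): TMM factors, filterByExpr (minimum count 10, minimum total 15), robust glmQLFit and glmQLFTest with the group as the only term, two-sided, with Benjamini-Hochberg adjustment over 10194 genes and a threshold of 0.05. The standard error is the log2 fold change divided by the square root of F. Pair ratios carry a pseudocount of 0.5. Coordinates come from GENCODE M21 (GRCm38, the build mm10), as do protein repeats, from its translated transcripts in place of a RefSeq protein table that was planned, and promoters from RefSeq (GRCm38.p6). Every collagen gene is accounted for: values in each library are given for called genes and for Col1a1, Col1a2 and Col3a1 in any case, and up to 4 genes of smallest p for each list of the collagen pathway. The members and lists were chosen with earlier results of these data known. DESeq2 1.42.0 and limma-voom 3.58.1 were alternatives, with other scalings, filters, a replicate block and leaving out each library.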

Additional observations from a re-analysis of the deposited data

How the results depend on the processing

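The alternatives were DESeq2, limma-voom, upper-quartile factors, total counts, no filter, a filter of 5 CPM in 3 libraries, leaving out Ctsd, a replicate block and leaving out each library. Over them 4 to 5 collagen genes were called higher and 12 to 15 lower, and over all genes 1535 to 1977 higher and 1060 to 1649 lower. Calls of Col6a2 and Col18a1 were lost, and Col4a2, Col4a5 and Col6a3 gained a call, under the settings given with each gene; the cause was not tested. The other 22 tested collagen genes kept their direction and their side of the threshold under each alternative that tested them. The lower share of collagen counts ranged from -0.940 to -0.652 percentage points. Of the genes outside the collagen family, Itgb1 was called lower with total counts (log2 fold change -0.26, adjusted p = 0.0171). Replicate numbers were not found to pair the libraries: deviations of same-numbered libraries correlated at -0.112 to 0.00525, and not every library correlated best with its own number. With the replicate block 5 collagen genes were called higher and 13 lower, of 1646 and 1174 genes in all, and no collagen call was lost or gained. The members under 10 counts in most libraries are too shallow to compare.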
